A study of Mus musculus with 41 samples.

Results

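The 9 genes described here encode thrombospondins (Thbs1, Thbs2, Thbs3, Thbs4 and Comp), tenascins (Tnn and Tnc), periostin (Postn) and osteonectin (Sparc). They were chosen by their symbols, and all 9 are present both among the 22438 genes with ribosome footprint values and among the 55385 genes with RNA values. Thbs4 and Tnn are on the list because they were higher in mutant cells in these same data, so that their values are given as a description, with no test. The other 7 genes were tested.

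These genes encode matricellular proteins, which cells secrete into the extracellular matrix and which regulate how cells adhere, migrate and respond to growth factors more than they build the matrix itself. Thbs1 and Thbs2 form trimers, are known to inhibit angiogenesis and bind the receptors CD36 and CD47, and the Thbs1 protein activates latent TGF-beta. Thbs3, Thbs4 and Comp form pentamers and are known from tendon, cartilage and muscle. Tnc and Tnn (tenascin-W) are large multimers of mesenchyme, bone and healing tissue, Postn is a TGF-beta induced protein of periosteum, heart valves and fibroblasts, and Sparc is a collagen-binding protein of bone, basement membranes and glia. Cultured fibroblasts are known to secrete several of them in quantity.

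The study asked what happens when translation-dependent quality control fails. Hbs1l and Pelo encode partners that rescue stalled ribosomes, and Upf2 encodes a factor of nonsense-mediated mRNA decay (NMD). Ribosome protected fragments (RPF, stretches of mRNA shielded by ribosomes) were sequenced from E8.5 Hbs1l-/- and wild-type embryos on a C57BL/6NJ background, with several embryos pooled in each replicate, and from P14 cerebella of Atoh-Cre;Hbs1l cKO and Atoh-Cre;Hbs1l +/+ mice on C57BL/6J, with 1 cerebellum per replicate. In the cerebellum this Cre, Tg(Atoh1-Cre) in the study's methods, acts in the granule cell lineage. Because the cKO is Hbs1l fl/- there, the other cell types keep a single functional allele, against a full pair in controls. RPF and RNA were also sequenced from primary mouse embryonic fibroblasts (MEFs) on C57BL/6 that carry the CAG-Cre ER transgene, either alone (controls) or with Hbs1l, Pelo or Upf2 cKO alleles. Every MEF culture, controls included, was treated with tamoxifen, and per the study's methods all MEFs and the cerebellar cKO carry the C57BL/6J allele of n-Tr20, a tRNA gene. Each RPF group had 3 replicates, each MEF mutant was sequenced in a pool with 3 control libraries, and RNA came from 3 control, 3 Hbs1l-/-, 2 Pelo-/- and 3 labelled Upf2-/- libraries. A replicate of MEFs came from 1 embryo.

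Embryo libraries held 2634480 to 7298812 footprints, cerebellar libraries 10919139 to 22591768 and MEF libraries 5782990 to 25607974, and RNA libraries held 22713643 to 86425762 estimated counts. Same-numbered MEF control libraries of the 3 pools differed from each other by little more than counting noise (chi-square per gene 1.1 to 1.19 over 9 pairs, against 4.06 to 12.6 over 27 pairs of other numbers), so the 3 mutant comparisons share their controls in effect. Hbs1l RPF fell in Hbs1l-/- embryos (log2 fold change -3.60), cKO cerebella (-1.5) and Hbs1l-/- MEFs (-4.15), and Pelo RPF fell in Pelo-/- MEFs (-3.78). Upf2 went against its label: its gene-level RPF rose by a log2 fold change of 1.09 ± 0.08 (SE, adjusted p = 3.11e-07) and its RNA by 1.33 ± 0.25 (adjusted p = 0.00687) in the libraries labelled Upf2-/-. Counts covered the whole coding sequence or gene and the exons that the allele lacks were not examined here, so these cells are called labelled Upf2-/- throughout. The study reports that transcripts annotated for NMD or with retained introns accumulated in its Upf2-/- cells only, which runs the way the label says. Expression of Ddx3y, a gene of the Y chromosome, was higher in all 3 Hbs1l-/- embryo pools (53.3 to 71.4 CPM) than in the wild-type pools (5.14 to 32.9 CPM). In MEF footprints it was at 111 to 123 CPM in all 3 labelled Upf2-/- libraries and at 0.67 CPM or less in all 3 Hbs1l-/- libraries, whereas 1 of 3 controls in each pool (104 to 113 CPM) and 2 of 3 Pelo-/- libraries expressed it. In MEF RNA, Ddx3y was at 0.068 to 0.115 CPM in Hbs1l-/- libraries and at 0.081, 22.5 and 25.9 CPM in labelled Upf2-/- libraries. It was at 0.043 and 11.3 CPM in Pelo-/- RNA and at 0, 0.119 and 29.2 CPM in control RNA. Sex composition thus moved with genotype in embryos and MEFs. Its part in the results was not tested, and in the footprints of labelled Upf2-/- against Hbs1l-/- cells it cannot be told apart from genotype.

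The promoters of Thbs4 and Tnn, the pair the list was chosen for, and of Postn are shown first. Postn had the largest change among the tested genes that rose in all 3 MEF mutants. Thbs4 lies on chr13:92751590-92794818 (minus strand), Tnn on chr1:160085029-160153580 (minus strand) and Postn on chr3:54361109-54391037 (plus strand) of GRCm38 (Gencode M21). The 250 bases before the RefSeq start (GRCm38.p6) run over chr13:92794819-92795068, chr1:160153576-160153825 and chr3:54360857-54361106. Capitals mark matches to GGAATG, the letters bound by TEAD factors, on either strand in Thbs4 and Tnn, and to the TATA box letters TATAAA in Postn.
Thbs4: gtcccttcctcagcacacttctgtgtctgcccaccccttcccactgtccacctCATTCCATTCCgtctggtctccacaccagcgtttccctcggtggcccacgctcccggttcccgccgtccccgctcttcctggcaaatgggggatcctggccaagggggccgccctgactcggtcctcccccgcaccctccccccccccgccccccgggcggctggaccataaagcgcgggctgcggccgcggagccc
Tnn: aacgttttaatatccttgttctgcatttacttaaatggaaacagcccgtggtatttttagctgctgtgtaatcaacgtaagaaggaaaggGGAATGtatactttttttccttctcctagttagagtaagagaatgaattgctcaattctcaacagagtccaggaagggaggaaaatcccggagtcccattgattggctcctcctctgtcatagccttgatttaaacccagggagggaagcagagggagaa
Postn: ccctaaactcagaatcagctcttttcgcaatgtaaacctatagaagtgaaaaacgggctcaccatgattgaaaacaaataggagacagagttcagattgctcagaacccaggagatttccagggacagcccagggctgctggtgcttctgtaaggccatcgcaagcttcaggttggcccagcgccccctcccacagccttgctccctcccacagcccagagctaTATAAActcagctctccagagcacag
Promoter sequences were matched for 7 of the 9 genes. Thbs4 held 2 matches to GGAATG on the minus strand, 197 to 192 and 192 to 187 bases before the start, which overlap by 1 base. Tnn held 1 on the plus strand, 160 to 155 bases before the start. Postn held TATAAA 26 to 21 bases before the start. Tnc and Thbs2 held TATAAA 126 to 121 bases before theirs, on the plus and minus strand, and neither letter string was found for Thbs3 or Sparc. The Sparc stretch lies before a start 3103 bases inside the annotated gene, not before its annotated start, whereas those of the other 6 lie within 27 bases of theirs. The AP-1 letters TGANTCA were found in none of the 7. Searched the same way on both strands of 32851 promoters of this length, GGAATG occurred in 12.6%, TATAAA in 12.4% and TGANTCA in 6.75%, so matches like these are common and are given as a description.

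In control cells the 9 genes fell into a high and a low tier in MEFs. As CPM (counts scaled to library size) per kilobase of coding sequence, which allows levels to be compared between genes, control MEFs had 5569 ± 418 (SD, n = 3) for Thbs1, 5219 ± 249 for Sparc and 1086 ± 38.2 for Tnc. Thbs1 and Sparc overlapped between libraries, and both lay above Tnc in every library. Postn (330 ± 80.0) and Thbs2 (251 ± 34.4) overlapped with each other. The low tier was Thbs3 at 7.36 ± 0.33, Thbs4 at 3.15 ± 0.37, Tnn at 1.63 ± 0.13 and Comp at 0.820 ± 0.276, and no neighbours in this tier overlapped. RNA of control MEFs, in TPM (transcript abundance scaled to length and library size), began with Sparc (1515 ± 136), Thbs1 (624 ± 158) and Tnc (168 ± 56.6) and ended with Thbs4 (1.00 ± 0.47), Comp (0.447 ± 0.229) and Tnn (0.438 ± 0.164), whose libraries overlapped.

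The order differed by source. Sparc was first in wild-type embryos (442 ± 41.1 CPM per kilobase, n = 3) and in control cerebella (1788 ± 618). In embryos it was followed by Postn (51.6 ± 6.20), Thbs1 (15.4 ± 1.95) and Thbs4 (14.2 ± 2.56), the last 2 overlapping. Thbs2 and Comp were each below 1 in every wild-type embryo library, and no Tnn footprint was found in any of the 6 embryo libraries. In cerebella Tnc (33.7 ± 9.42) came next, then Thbs1 (11.6 ± 7.12), Postn (10.3 ± 6.69) and Thbs2 (6.75 ± 2.37), which overlapped. Fewer expressing cells and less RNA per cell cannot be told apart in such bulk samples.

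**Figure D1:**
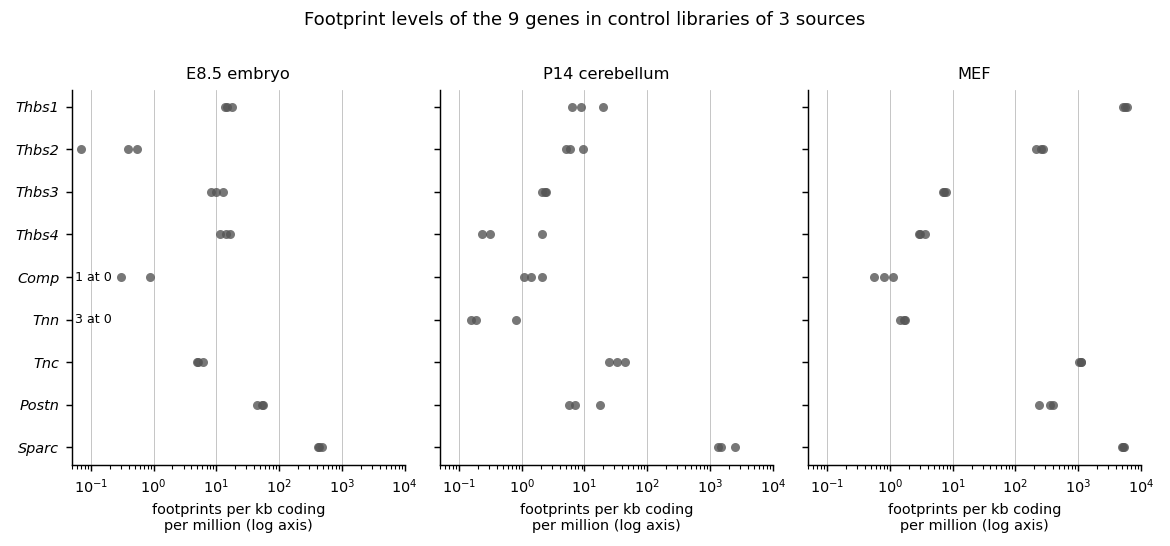
Footprint CPM per kilobase of coding sequence (log axis) of the 9 genes in each control library of embryos, cerebella and MEFs (3 points each, 1 per library, with libraries at 0 written as text). Sparc is at or near the top in all 3 sources, and Thbs1 lies between 13.8 and 17.6 in embryos but between 5178 and 6010 in MEFs.

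In MEF footprints, Thbs4 and Tnn lay above the controls in every library of every mutant. Thbs4, a pentameric thrombospondin, had 8.68, 7.78 and 12 CPM (scaled with TMM factors) in the controls pooled with Hbs1l-/- cells and 40.2, 33.7 and 32.8 CPM in Hbs1l-/- cells. Against their own controls (8.27, 9.03 and 9.72 CPM), Pelo-/- cells had 76.7, 74.6 and 70.5 CPM. Cells labelled Upf2-/- had 36.1, 42.3 and 41.6 CPM against 8.35, 9.996 and 9.62 CPM. The groups did not overlap in any of the 3 comparisons, and the log2 fold changes of Thbs4 were 1.92 ± 0.15 (SE) in Hbs1l-/-, 3.04 ± 0.09 in Pelo-/- and 2.11 ± 0.11 in labelled Upf2-/- cells.

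Tnn, or tenascin-W, differed more between the mutants. Its controls had 8.77, 8.0 and 6.61 CPM beside Hbs1l-/- cells at 37.8, 27.7 and 29.2 CPM. Pelo-/- cells had 184, 165 and 141 CPM against 8.45, 8.38 and 7.93 CPM. Cells labelled Upf2-/- had 16.6, 9.76 and 12.7 CPM against 7.57, 7.98 and 6.43 CPM. The 3 Pelo-/- libraries were thus the highest of all and the labelled Upf2-/- libraries lay closest to the controls, with log2 fold changes of 2.03 ± 0.15, 4.30 ± 0.12 and 0.79 ± 0.19 in the same order. Since both genes were picked for being higher in mutants, these values support nothing about the list.

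Of the 7 tested genes, 5 passed an adjusted p of 0.05 in Hbs1l-/- footprints (4 higher, 1 lower), where 34.4% of 11984 genes passed (17.5% higher, 16.9% lower). In Pelo-/- footprints 5 passed (4 higher, 1 lower) against 44.1% of all genes (22.9% higher, 21.3% lower), and in labelled Upf2-/- footprints 6 passed (3 higher, 3 lower) against 43.7% (22.5% higher, 21.2% lower). The median log2 fold change of the 7 was 0.45, 0.46 and 0.62, against -0.01, 0.00 and 0.00 over all genes tested. Mutants and controls did not overlap for 6, 5 and 5 of the 7 in the same order, where 46.4%, 55.4% and 54.1% of all genes did not overlap. The 3 comparisons share their controls, so the values are given side by side. The 7 genes were listed with earlier results of these data known. Their counts and medians, here and below, are therefore not read as more or less than those of all genes. Here and throughout, p-values come from quasi-likelihood tests in edgeR and are adjusted over all genes tested by the method of Benjamini and Hochberg.

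Postn, a collagen-binding matrix protein induced by TGF-beta, rose in all 3 mutants. Its controls had 902, 628 and 1008 CPM beside Hbs1l-/- cells at 1964, 1867 and 1858 CPM, a log2 fold change of 1.17 ± 0.18 (adjusted p = 0.00452). Pelo-/- cells had 2076, 2243 and 2137 CPM against 904, 622 and 997 CPM (1.36 ± 0.16, adjusted p = 0.000545). Cells labelled Upf2-/- had 2833, 2886 and 2382 CPM against 902, 633 and 986 CPM (1.69 ± 0.18, adjusted p = 0.000619). No mutant library overlapped with a control, and the control with the lowest level in each pool was replicate 2. These calls held in every alternative tried.

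The trimeric thrombospondins moved in opposite directions. Thbs1 had 18272 to 21924 CPM in the controls pooled with Hbs1l-/- cells and fell to 14760 to 15658 CPM in Hbs1l-/- cells (log2 fold change -0.38 ± 0.07, adjusted p = 0.000493), to 14447 to 16890 CPM in Pelo-/- cells (controls 18231 to 21856 CPM, -0.34 ± 0.09, adjusted p = 0.0105) and to 15267 to 18241 CPM in labelled Upf2-/- cells (controls 18356 to 22081 CPM, -0.28 ± 0.09, adjusted p = 0.0163). Thbs2 had 775 to 998 CPM in the controls pooled with Hbs1l-/- cells and rose to 1316, 1430 and 1346 CPM (0.60 ± 0.08, adjusted p = 4.06e-05). It rose to 1186, 1172 and 1349 CPM in Pelo-/- cells (0.46 ± 0.09, adjusted p = 0.0017) and to 1489, 1328 and 1347 CPM in labelled Upf2-/- cells (0.62 ± 0.08, adjusted p = 6.41e-05). Mutants and controls did not overlap for either gene in any of the 3 comparisons. The labelled Upf2-/- call for Thbs1 was lost without mutant replicate 1 (adjusted p = 0.0686) or 2 (0.0811).

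The pentameric thrombospondins lay at low levels and were higher where they passed. Thbs3 had 18.7 to 23.3 CPM in all control libraries and rose to 26.1 to 32.2 CPM in Hbs1l-/- cells (log2 fold change 0.45 ± 0.11, adjusted p = 0.00472), to 28.1 to 34.9 CPM in Pelo-/- cells (0.69 ± 0.10, adjusted p = 0.0003) and to 35.5 to 44.2 CPM in labelled Upf2-/- cells (0.81 ± 0.10, adjusted p = 2.63e-05), without overlap. Comp, the cartilage oligomeric matrix protein, rose in Pelo-/- cells, with 7.12, 6.26 and 14.3 CPM against 1.85, 1.63 and 1.96 CPM (2.37 ± 0.37, adjusted p = 0.00103). In Hbs1l-/- cells Comp had 3.99, 11.1 and 2.31 CPM against 2.52, 1.6 and 1.43 CPM, which overlap (1.5 ± 0.60, adjusted p = 0.0974). Without Hbs1l-/- replicate 3 that value passed (adjusted p = 0.00732). In labelled Upf2-/- cells Comp had 2.37, 4.92 and 3.17 CPM against 3.11, 0.805 and 1.98 CPM (0.90 ± 0.43, adjusted p = 0.116), and it passed without control replicate 1 (adjusted p = 0.0208) and with control counts summed over the pools (0.95, 0.0281).

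Tnc and Sparc, which are abundant, moved little. Tnc had 6747, 7308 and 7167 CPM in controls and 7418, 8068 and 8698 CPM in Hbs1l-/- cells, which do not overlap, and it rose by 0.19 ± 0.07 on the log2 scale (adjusted p = 0.0391). That call was lost without control replicate 1 (adjusted p = 0.203), Hbs1l-/- replicate 2 (0.0892) or 3 (0.17). In Pelo-/- cells Tnc had 6895 to 9160 CPM against 6759 to 7297 CPM (0.18 ± 0.10, adjusted p = 0.155), which passed without Pelo-/- replicate 3 (0.013). In labelled Upf2-/- cells it fell, with 5833 to 6902 CPM against 6815 to 7359 CPM (-0.20 ± 0.07, adjusted p = 0.0456), although one library overlapped, and the call was lost without any of the 3 controls (0.0696 to 0.0863) and without mutant replicate 1 (0.163) or 2 (0.183), or with controls summed over the pools (0.0513).

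Sparc had 5203, 5686 and 4981 CPM in controls beside 4955, 4877 and 4723 CPM in Hbs1l-/- cells, a log2 fold change of -0.12 ± 0.06 (adjusted p = 0.142). In Pelo-/- cells it had 5204 to 5487 CPM, within the range of the controls (0.03 ± 0.07, adjusted p = 0.78). It fell in labelled Upf2-/- cells to 4436 to 4646 CPM, below all their controls at 5007 to 5704 CPM (-0.22 ± 0.07, adjusted p = 0.0141). Without control replicate 1 (adjusted p = 0.0523) or mutant replicate 2 (0.0749) the fall of Sparc missed the threshold.

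**Figure D2:**
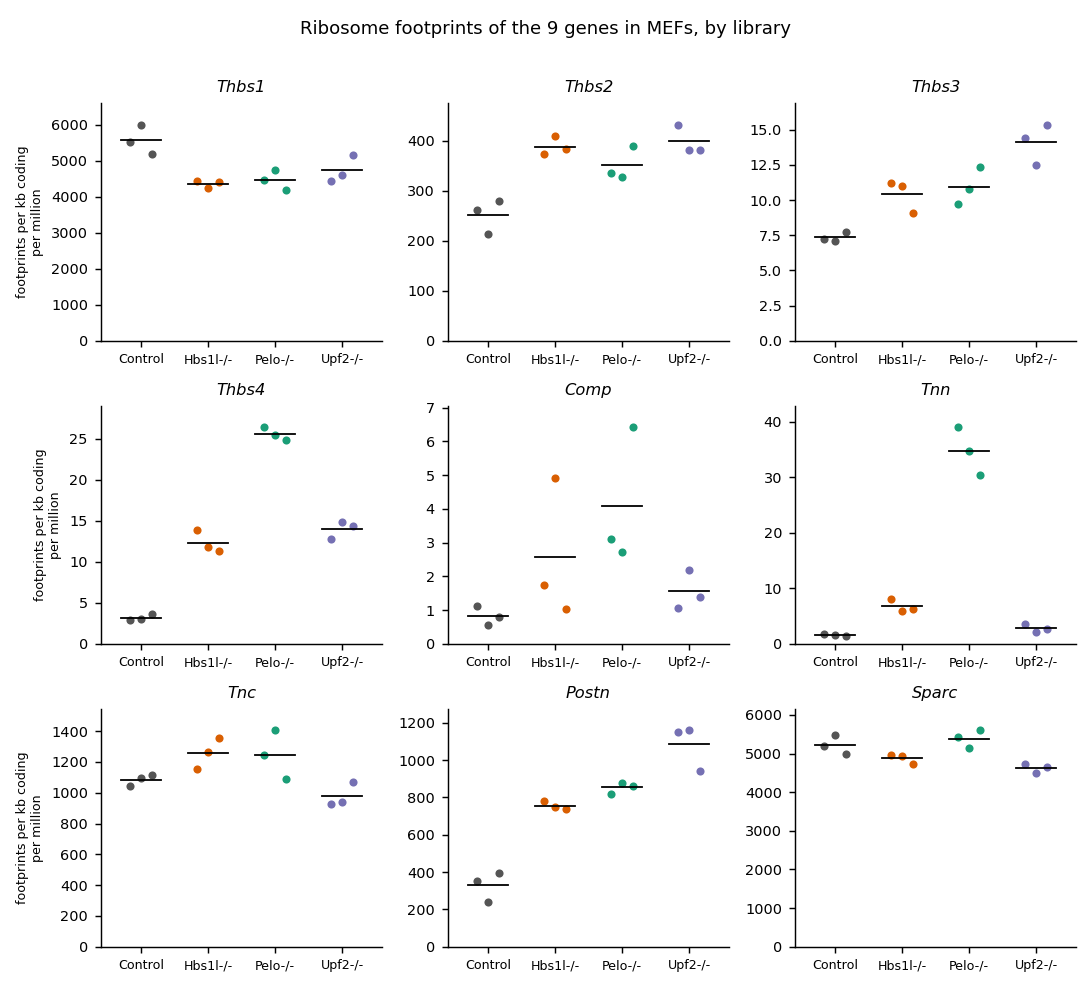
Footprint CPM per kilobase of coding sequence of each gene in control MEFs (counts summed over the 3 pools), Hbs1l-/-, Pelo-/- and labelled Upf2-/- MEFs, with 1 point per library and a bar at the mean of 3. Thbs4 and Tnn reach 25.5 and 34.8 on average in Pelo-/- cells from 3.15 and 1.63 in controls, and Postn is lowest in controls.

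Cell type markers moved in the same MEF libraries. The 6 smooth muscle and myofibroblast markers, none at 0, summed to 11566 to 16978 CPM in the mutants and 22764 to 25075 CPM in the controls. Of the 6, 6 fell in Hbs1l-/-, 6 in Pelo-/- and 4 in labelled Upf2-/- cells. The 8 skeletal muscle markers, of which up to 3 were at 0 in a library, summed to 23.9 to 65.9 CPM in the mutants and 136 to 198 CPM in the controls. The 9 fibroblast markers, none at 0, summed to 32697 to 39250 CPM against 27856 to 28533 CPM, and 7 of 9 rose in each mutant. The 7 macrophage markers summed to 98.5 to 314 CPM against 54.1 to 86.0 CPM. Tendon markers, for a tissue where Thbs4 and Comp are known, overlapped between mutants and controls (163 to 209 against 182 to 235 CPM), with at most 1 of 5 at 0. The 8 cartilage markers, for another tissue of Comp and its relatives, summed to 126 to 498 CPM in the mutants and 531 to 680 CPM in the controls, with up to 2 at 0, and the 6 endothelial markers to 23.6 to 58.6 against 67.9 to 81.9 CPM, with up to 2 at 0. The 6 osteoblast markers, for a cell type of bone, where Postn and Sparc are known, were higher without overlap in Hbs1l-/- (35.7 to 54.7 against 28.1 to 31.5 CPM) and Pelo-/- cells (50.4 to 52.4 against 27.5 to 34.1 CPM) and overlapped in labelled Upf2-/- cells (32.8 to 38.6 against 30.9 to 34.8 CPM), with at most 1 at 0. The part of cell composition in the changes of the 9 genes was not tested.

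Mutants were also compared with each other, over 12 libraries with the control counts summed over the pools. Thbs4 was 1.06 ± 0.10 and Tnn 2.36 ± 0.16 higher (log2, SE) in Pelo-/- than in Hbs1l-/- cells. Between labelled Upf2-/- and Hbs1l-/- cells the log2 differences were 0.16 ± 0.10 for Thbs4 and -1.35 ± 0.19 for Tnn. Of the 7 tested genes, 0 differed between Pelo-/- and Hbs1l-/- footprints by edgeR, where 19.2% of 12812 genes did (10.7% higher, 8.53% lower), 1 had an unadjusted p below 0.05 and DESeq2 called 1. With sex confounded with genotype, labelled Upf2-/- cells had more Thbs3 (0.42 ± 0.11, adjusted p = 0.0166) and Postn (0.51 ± 0.14, adjusted p = 0.0356) and less Tnc (-0.37 ± 0.09, adjusted p = 0.0133) footprints than Hbs1l-/- cells, 3 of 7 against 15.9% of all genes (8.8% higher, 7.09% lower). Pelo-/- cells had more Tnc (0.38 ± 0.09, adjusted p = 0.0063) and Sparc (0.25 ± 0.06, adjusted p = 0.00324) and less Thbs3 (-0.32 ± 0.11, adjusted p = 0.0286) than labelled Upf2-/- cells, 3 of 7 against 28.9% (14.6% higher, 14.3% lower). With each mutant set against its own pool's controls, all 3 of the latter missed the threshold, Thbs3 with a smaller log2 difference (-0.12, adjusted p = 0.643) and Tnc (0.38, 0.0618) and Sparc (0.26, 0.0726) with nearly the same one. Between labelled Upf2-/- and Hbs1l-/- cells Thbs3 (0.35, 0.18) and Postn (0.52, 0.359) missed it too, and Postn also without the filter on low counts (0.0614). The own-pool fit counts same-numbered controls of different pools as separate samples, although they differed by little more than counting noise. Calls between labelled Upf2-/- and Hbs1l-/- cells were also lost without Hbs1l-/- replicate 3 (Thbs3 0.0903, Tnc 0.0705, Postn 0.103) or mutant replicate 1 (0.0532, 0.0598 and 0.0991), for Tnc and Postn without mutant replicate 2 (0.0602 and 0.106), for Thbs3 without mutant replicate 3 (0.0817), and for Postn without Hbs1l-/- replicate 1 (0.0664) or 2 (0.0839) or Pelo-/- replicate 3 (0.0572). The Thbs3 call between Pelo-/- and labelled Upf2-/- cells was lost without Pelo-/- replicate 1 (0.114) or 2 (0.0544) or mutant replicate 1 (0.0744) or 3 (0.132). With Hbs1l-/- replicate 2, the library with 11.1 CPM of Comp, left out, Comp was higher in Pelo-/- than in Hbs1l-/- cells (1.55, 0.0387) and than in labelled Upf2-/- cells (1.36, 0.0286). Without control replicate 2, Sparc was higher in Pelo-/- than in Hbs1l-/- cells (0.16, 0.0392) and Postn lower in Pelo-/- than in labelled Upf2-/- cells (-0.32, 0.00203).

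RNA of the same genotypes gave a different picture, from cultures that were in part other embryos than the RPF libraries. Thbs4 RNA was at 0.556, 0.968 and 1.49 TPM in controls and 5.30, 3.40 and 2.31 TPM in Hbs1l-/- cells, without overlap. It was at 2.98 and 1.80 TPM in Pelo-/- cells, also above all controls, and at 0.946, 1.20 and 0.934 TPM in labelled Upf2-/- cells, within the controls. On gene-level estimated counts the log2 fold changes were 1.78 ± 0.36, 1.09 ± 0.34 and 0.04 ± 0.26 (SE), the last becoming 0.44 without control replicate 3. Over all genes, 44.3%, 62.2% and 39.9% did not overlap between mutant and control RNA in the same order, in CPM of estimated counts.

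Tnn RNA was at 0.253, 0.498 and 0.564 TPM in controls. Hbs1l-/- cells had 3.00, 1.81 and 1.49 TPM and Pelo-/- cells 1.31 and 1.24 TPM, all above the controls. Labelled Upf2-/- cells had 1.01, 1.1 and 0.549 TPM, with 1 library inside the control range. In CPM of estimated counts they lay above all controls (3.51 to 5.94 against 1.62 to 3.08 CPM). The log2 fold changes of Tnn were 2.19 ± 0.30, 1.41 ± 0.25 and 1.01 ± 0.26, and on the log2(TPM + 0.5) scale, which understates changes of low genes, 1.45, 0.94 and 0.56. Mean RNA was thus highest in Hbs1l-/- cells for both genes, although Thbs4 libraries of Hbs1l-/- and Pelo-/- cells overlapped, where footprints were highest in Pelo-/- cells. The log2 difference of Pelo-/- from Hbs1l-/- RNA was -0.71 ± 0.35 for Thbs4 and -0.79 ± 0.32 for Tnn.

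Of the 7 tested genes, 2 passed in Hbs1l-/- RNA (1 higher, 1 lower), against 23.4% of 15318 genes (12.8% higher, 10.6% lower). Thbs1 fell (-0.57 ± 0.14, adjusted p = 0.0155), with 1977 to 2384 CPM of estimated counts against 2747 to 3891 CPM. Thbs3 rose (0.77 ± 0.21, adjusted p = 0.0294), with 18.0, 12 and 11 CPM against 6.28, 7.98 and 9.41 CPM. In TPM, which carries no TMM factors and for Thbs3 also depends on the lengths of several isoforms, both overlapped. Thbs1 had 373 to 473 TPM against 468 to 784 TPM and Thbs3 4.41 to 7.75 against 2.31 to 6.12 TPM. Limma on log2(TPM + 0.5) called neither (adjusted p = 0.106 and 0.274). The Thbs3 call was lost without control replicate 1 (adjusted p = 0.0778) or 2 (0.0947) and without Hbs1l-/- replicate 1 (0.0593) or 2 (0.0536), and the Thbs1 call without Hbs1l-/- replicate 2 (0.058). In these RNA libraries smooth muscle markers summed to 8377 to 9868 TPM against 13551 to 15506 TPM in controls (none of 6 at 0), skeletal muscle markers to 13.1 to 23.8 against 86.5 to 101 TPM (up to 2 of 8 at 0) and macrophage markers to 61.7 to 90.9 against 26.7 to 47.0 TPM (up to 1 of 7 at 0). Fibroblast markers were higher (5632 to 6812 against 4435 to 5566 TPM). Endothelial (6.65 to 7.58 against 15.3 to 20.5 TPM) and meninges markers (6.09 to 7.34 against 8.97 to 12.8 TPM) were lower. Their part in the results was not tested.

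In Pelo-/- RNA 4 of 7 passed, all higher, against 32.5% of 14705 genes (15.6% higher). Tnc rose most, from 103, 209 and 190 TPM in controls to 536 and 514 TPM (log2 fold change 1.55 ± 0.22, adjusted p = 0.00327). Thbs1 rose from 468, 784 and 619 TPM to 1235 and 1207 TPM (0.85 ± 0.16, adjusted p = 0.00683). Neither gene overlapped between the groups, in TPM or in CPM of estimated counts. In CPM, 62.2% of all genes did not overlap either (31.3% higher). Thbs3 (0.57 ± 0.17, adjusted p = 0.0394) and Sparc (0.30 ± 0.09, adjusted p = 0.0318) passed as well. Thbs3 missed the threshold without Pelo-/- replicate 1 (0.174) or 2 (0.105) or control replicate 2 (0.076), and Sparc without Pelo-/- replicate 1 (0.228) or 2 (0.259) or control replicate 1 (0.0545). Thbs3 overlapped with the controls in TPM, limma on log2(TPM + 0.5) called neither (0.278 and 0.0752), and Sparc missed the threshold without the filter on low counts (0.311). Only 2 libraries stand behind every Pelo-/- RNA value, so each fit without 1 of them assumes that the lone sample varies like the controls. In these libraries fibroblast markers summed to 5850 to 6476 against 4435 to 5566 TPM in controls. Markers of parietal and visceral endoderm (684 to 697 against 233 to 389 TPM) and cartilage (57.41 to 57.42 against 37.9 to 55.3 TPM) were higher too. Tendon markers were lower (30.0 to 31.2 against 47.6 to 56.9 TPM). The part of these differences was not tested.

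In labelled Upf2-/- RNA 0 of 7 passed by edgeR, against 20.9% of 15983 genes (13.6% higher, 7.29% lower), 1 had an unadjusted p below 0.05 and DESeq2 called 1. That gene was Thbs3, at 6.49, 5.44 and 3.67 TPM against 2.31, 3.46 and 6.12 TPM (0.50 ± 0.18, adjusted p = 0.0621 by edgeR and 0.0473 by DESeq2), and its edgeR value passed without mutant replicate 1 (0.0357). Postn RNA passed in no mutant, with 18.8, 59.2 and 59.7 TPM in controls, 49.3 to 73.1 TPM in Hbs1l-/-, 27.5 to 44.9 TPM in Pelo-/- and 26.7 to 42.9 TPM in labelled Upf2-/- cells. Control replicate 1 stood low for Postn, Tnc and Thbs2. Without it Postn RNA fell in Pelo-/- (-0.79, adjusted p = 0.0146) and labelled Upf2-/- cells (-0.64, adjusted p = 0.0081), and Thbs2 RNA rose in Pelo-/- cells (0.26, adjusted p = 0.0373).

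**Figure D3:**
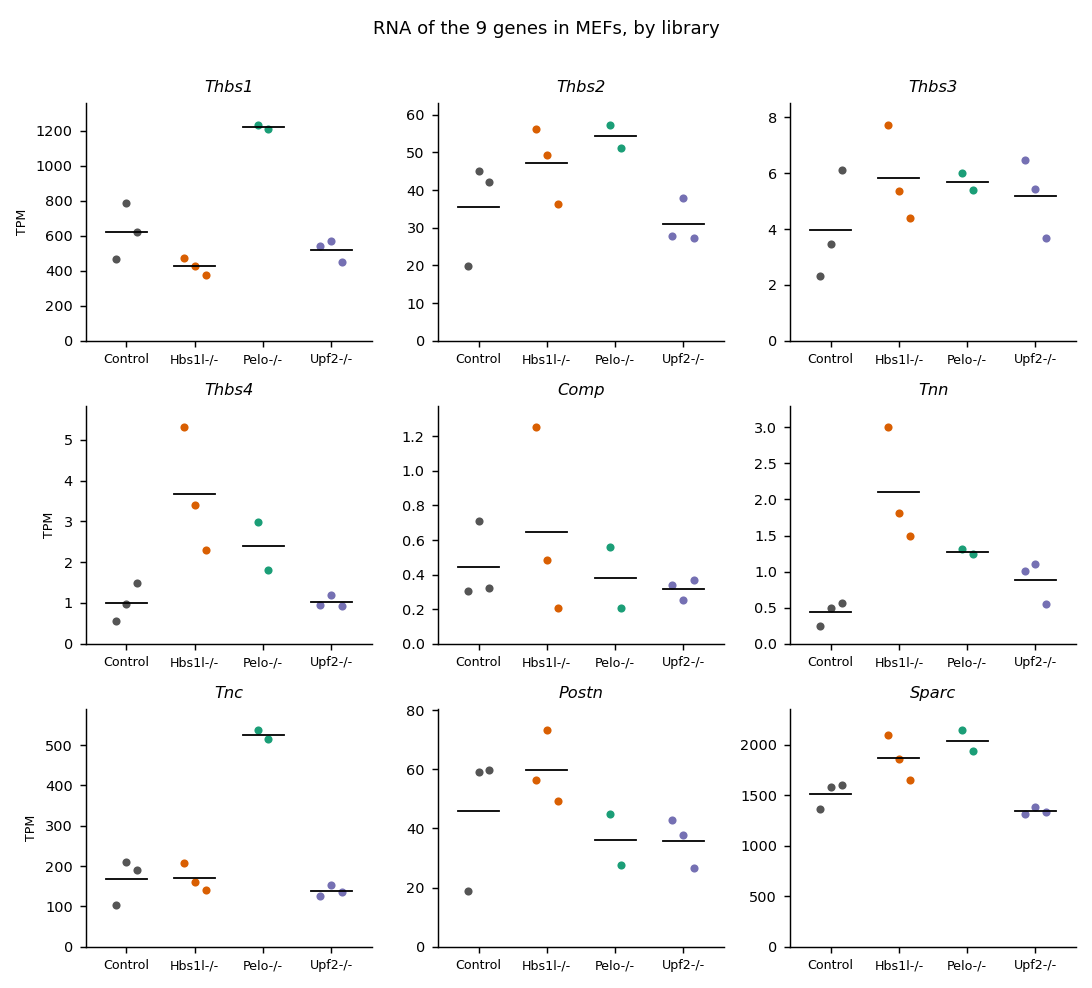
TPM of each gene in control, Hbs1l-/-, Pelo-/- and labelled Upf2-/- MEF RNA, with 1 point per library and a bar at the mean (3 libraries, 2 for Pelo-/-). Tnc and Thbs1 are highest in Pelo-/- cells, the means of Thbs4 and Tnn are highest in Hbs1l-/- cells, and control Postn has 1 library at 18.8 TPM below the other 2.

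Between mutants, Thbs1 and Tnc RNA set Pelo-/- cells apart. Thbs1 RNA was higher in Pelo-/- than in Hbs1l-/- cells (1.41 ± 0.13, adjusted p = 4.31e-05) and than in labelled Upf2-/- cells (1.07 ± 0.13, adjusted p = 0.0001), and Tnc RNA was higher by 1.54 ± 0.20 (adjusted p = 0.000298) and 1.75 ± 0.20 (adjusted p = 7.74e-05). Of the 7 genes, 2 differed between Pelo-/- and Hbs1l-/- RNA (31.5% of 16218 genes) and 3 between Pelo-/- and labelled Upf2-/- RNA (31.9%), the third being Sparc (0.43 ± 0.10, adjusted p = 0.00562), which missed the threshold without Pelo-/- replicate 1 (0.0558) or 2 (0.053). Labelled Upf2-/- cells had less Sparc RNA than Hbs1l-/- cells (-0.41 ± 0.09, adjusted p = 0.00378) and more Thbs1 RNA (0.35 ± 0.12, adjusted p = 0.0415), 2 of 7 against 33.2%. The last was lost without Hbs1l-/- replicate 2 or 3, either Pelo-/- library or any labelled Upf2-/- library (0.0516 to 0.136), and with RLE factors (0.0596) or no filter on low counts (0.0518). Without control replicate 1, Postn was lower in Pelo-/- (-0.78, 0.0139) and labelled Upf2-/- (-0.67, 0.0132) than in Hbs1l-/- RNA, and Thbs2 was lower in labelled Upf2-/- than in Hbs1l-/- (-0.56, 0.00698) and Pelo-/- RNA (by 0.69, 0.00394). Thbs2 also differed between labelled Upf2-/- and Pelo-/- RNA without control replicate 2 (0.0456) and, with Comp, between labelled Upf2-/- and Hbs1l-/- RNA without Hbs1l-/- replicate 3 (0.0481 and 0.0126).

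Translational efficiency (TE) is the change in RPF beyond the change in RNA, taken from 1 model over both kinds of library. In Hbs1l-/- cells 0 of 7 genes passed by edgeR, against 0.0336% of 11907 genes (0.0168% in each direction), 1 had an unadjusted p below 0.05 and DESeq2 called 0. The log2 TE changes of Thbs4 (0.20 ± 0.41, SE) and Tnn (-0.11 ± 0.35) were smaller than their errors there. Without RNA control replicate 1, Postn TE rose in Hbs1l-/- cells (1.15, adjusted p = 0.0452, against 0.83 ± 0.44 and 0.354 with it).

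In Pelo-/- cells 4 of 7 genes changed in TE (2 higher, 2 lower), against 44.4% of 12143 genes (24.1% higher, 20.3% lower). Comp (2.62 ± 0.59, adjusted p = 0.00277) and Postn (1.84 ± 0.51, adjusted p = 0.0163) rose, and Tnc (-1.35 ± 0.25, adjusted p = 0.000777) and Thbs1 (-1.17 ± 0.19, adjusted p = 0.000229) fell. RNA of Tnc and Thbs1 was above the controls, while Thbs1 footprints lay below them and Tnc footprints overlapped with them. The TE values of Thbs4 and Tnn were 2.02 ± 0.33 and 2.96 ± 0.25. Postn missed the threshold without RNA Pelo-/- replicate 2 (adjusted p = 0.0931). The marker lists did not move alike in the 2 assays: skeletal muscle markers summed to 104 to 119 TPM in Pelo-/- RNA and 86.5 to 101 TPM in control RNA, and smooth muscle markers to 13005 to 14243 against 13551 to 15506 TPM, unlike the lower sums in Pelo-/- footprints. Markers of parietal and visceral endoderm summed to 684 to 697 against 233 to 389 TPM in RNA but to 4270 to 4941 against 6271 to 7801 CPM in footprints (up to 4 of 10 at 0), and tendon markers to 30.0 to 31.2 against 47.6 to 56.9 TPM in RNA (up to 1 of 5 at 0). Cartilage markers summed to 57.41 to 57.42 against 37.9 to 55.3 TPM in RNA. In footprints they summed to 126 to 198 against 533 to 666 CPM (up to 1 of 8 at 0). The part of this difference between cultures in the Pelo-/- TE values was not tested.

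In labelled Upf2-/- cells 2 of 7 genes changed in TE, both higher, against 20.3% of 12054 genes (8.46% higher). Postn rose by 1.98 ± 0.42 on the log2 scale (adjusted p = 0.00916), and this held in every alternative. Thbs2 rose by 0.76 ± 0.25 (adjusted p = 0.0399), which was lost in 9 of the 12 fits that left out 1 library (adjusted p = 0.0525 to 0.134), all except those without RPF control replicate 3, RNA control replicate 1 or RNA mutant replicate 2. The Thbs2 call was also lost without the filter on low counts (adjusted p = 0.0621). Comp TE passed without RPF control replicate 1 (1.96, adjusted p = 0.0291). The TE values of Thbs4 and Tnn were 2.08 ± 0.28 and -0.20 ± 0.34. In these cells Thbs4 thus had a footprint fold with little RNA fold. The marker lists did not move alike in the 2 assays here either. Fibroblast markers summed to 34042 to 36717 against 28053 to 28533 CPM in footprints and to 3705 to 4469 against 4435 to 5566 TPM in RNA, where they overlapped. Tendon markers overlapped in footprints and summed to 27.8 to 35.6 against 47.6 to 56.9 TPM in RNA (up to 1 of 5 at 0). Smooth muscle markers were lower in both, at 10135 to 11184 against 13551 to 15506 TPM in RNA, as were skeletal muscle markers, at 37.5 to 62.1 against 86.5 to 101 TPM. Their part in the results was not tested.

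**Figure D4:**
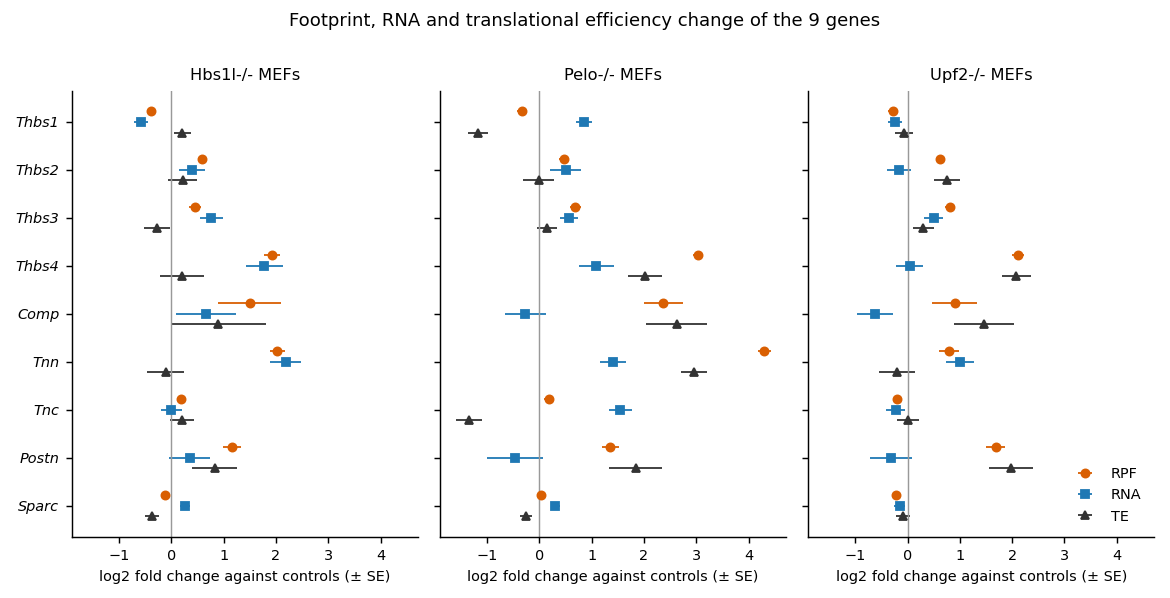
Log2 fold changes (± SE) of RPF, RNA and TE against controls for each gene in Hbs1l-/-, Pelo-/- and labelled Upf2-/- MEFs, where 0 is no difference. RPF and RNA points of Thbs4 and Tnn lie together in Hbs1l-/- cells and apart in Pelo-/- cells, and Thbs1 and Tnc have opposite RNA and TE signs in Pelo-/- cells.

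In E8.5 embryos 6 of the 9 genes passed the filter on low counts, and 0 of the 5 that were tested passed by edgeR, against 1.85% of 11416 genes. Of the 5, 4 had an unadjusted p below 0.05 and DESeq2 called 1, Postn. Postn had 117, 140 and 147 CPM in wild-type and 85.0, 84.3 and 96.5 CPM in Hbs1l-/- embryos (log2 fold change -0.60 ± 0.16, adjusted p = 0.0567 by edgeR and 0.0231 by DESeq2). Thbs1 had 50.6, 63.6 and 53.8 CPM against 37.0, 39.0 and 28.7 CPM (-0.68 ± 0.19, adjusted p = 0.0808). Tnc had 34.0, 41.1 and 32.9 CPM against 26.2, 26.4 and 14.2 CPM (-0.67 ± 0.24, adjusted p = 0.165). For these 3 genes and for Thbs4, at 34.8, 49.7 and 42.9 against 34.6, 25.7 and 19.2 CPM (-0.66 ± 0.23), every mutant lay below every wild-type library, although the highest mutant value of Thbs4 was only just under the lowest wild-type value. In CPM per kilobase, without TMM factors, that mutant library lay just above that wild-type library (11.57 against 11.56). Sparc lay above, with 538, 597 and 828 CPM against 444, 420 and 505 CPM (0.52 ± 0.16, adjusted p = 0.111). Over all genes 23.8% did not overlap between the groups (12.3% lower, 11.4% higher).

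Thbs3 had 24.9, 37.3 and 29.4 CPM in wild-type and 36.0, 20.6 and 13.1 CPM in Hbs1l-/- embryos, which overlap (-0.36 ± 0.31, adjusted p = 0.551). Thbs2 had 0 to 13 counts and Comp 0 to 8 counts per library, too few to test. Without Hbs1l-/- replicate 1, the deepest embryo library, all 5 tested genes passed: Thbs1 (-0.73, adjusted p = 0.0122), Thbs3 (-0.85, 0.0267), Tnc (-0.81, 0.0285) and Postn (-0.58, 0.00993) fell and Sparc rose (0.63, 0.00464). In that fit 2372 genes passed over all, against 211 with all libraries. Trophoblast markers summed to 255 to 1294 CPM in mutant and 131 to 176 CPM in wild-type pools (8 genes, up to 3 at 0 in a wild-type pool and none in a mutant pool), cardiomyocyte markers to 243 to 304 against 519 to 759 CPM (7 genes, none at 0) and smooth muscle markers to 466 to 590 against 708 to 739 CPM. Of the other lists, cartilage (256 to 464 against 519 to 601 CPM, up to 1 of 8 at 0), skeletal muscle (25.5 to 51.6 against 97.6 to 102 CPM, up to 5 of 8 at 0), neural tube and crest (90.7 to 162 against 174 to 179 CPM) and granule neuron markers (9.9 to 22.2 against 25.1 to 33.4 CPM, up to 3 of 6 at 0) were lower and endothelial markers (462 to 673 against 424 to 442 CPM) higher in every mutant pool. The part of these differences in tissue content was not tested.

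In P14 cerebella 0 of 7 tested genes passed by edgeR, against 0.0693% of 14430 genes (0.0624% higher, 0.00693% lower), 0 had an unadjusted p below 0.05 and DESeq2 called 0. Sparc, which glia are known to express, had 1604, 1407 and 2540 CPM in controls and 1734, 2210 and 1775 CPM in cKO cerebella (0.04 ± 0.23, adjusted p = 0.953). Tnc had 296, 221 and 162 against 249, 268 and 153 CPM (-0.02 ± 0.26, adjusted p = 0.98). All 9 genes overlapped between the groups, while 18.3% of all genes did not. Of the marker lists, those of Purkinje cells were lower in every cKO cerebellum (5586 to 7236 against 7582 to 12835 CPM). Macrophage and microglia markers were higher (209 to 249 against 157 to 198 CPM). The part of these differences was not tested. Thbs4 had 6.41, 0.708 and 0.908 CPM in controls and 1.02, 0.911 and 0.641 CPM in cKO cerebella, so that its log2 fold change of -1.56 ± 0.82 rested on control replicate 1, with 77 counts against 10 to 22 in the others, and became 0.07 without it. Tnn had 4.08 CPM in that control and 4.56 CPM in cKO replicate 2 against 0.385 to 0.908 CPM in the others (-0.11 ± 1.01).

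Control replicate 1 also had the highest cerebellar values of Thbs1 (73.5 against 22.3 to 52.9 CPM) and Postn (47.9 against 14.7 to 37.6 CPM). Its markers of skeletal muscle summed to 142 CPM (12.6 to 27.8 CPM in the other 5 libraries), those of osteoblasts to 178 CPM and those of fibroblasts to 4946 CPM, each the highest of the 6. The part of such tissue in its values of the 9 genes was not tested. Without it 0 of the 7 tested genes passed as well, the largest log2 fold change being that of Postn (0.77, adjusted p = 0.342).

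**Figure D5:**
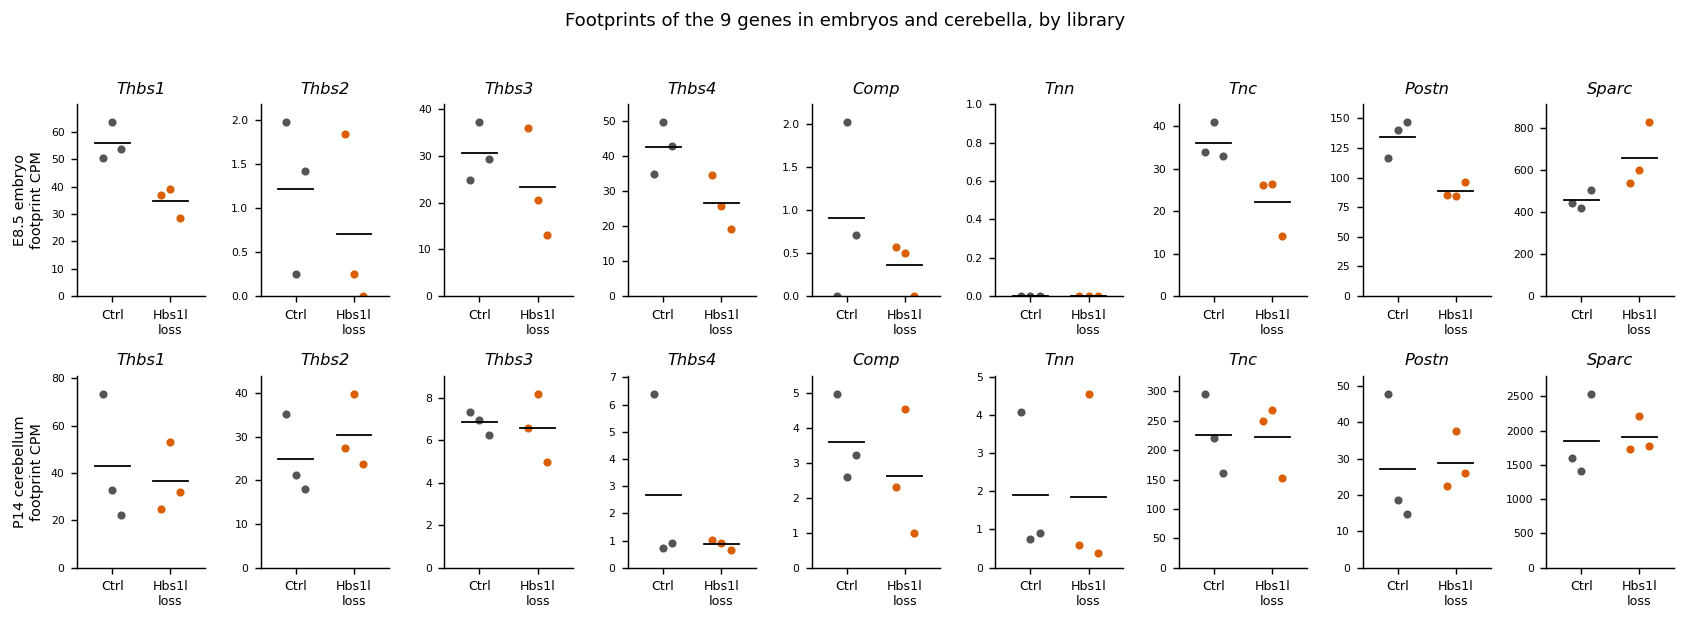
Footprint CPM (TMM scaled) of each gene in E8.5 embryos (top) and P14 cerebella (bottom), controls against Hbs1l loss, with 1 point per library and a bar at the mean of 3. Postn, Thbs1, Tnc and Thbs4 lie lower and Sparc higher in every Hbs1l-/- embryo pool, whereas cerebellar groups overlap for all 9 genes.

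The effect of Hbs1l loss on footprints was compared between sources as an interaction over 12 libraries. Between embryos and MEFs 3 of the 7 tested genes differed, against 7.86% of 13071 genes. Postn was lower in Hbs1l-/- embryos and higher in Hbs1l-/- MEFs, a difference in log2 fold change of -1.76 ± 0.21 (adjusted p = 0.000108) that held in every alternative. Tnc (-0.83 ± 0.23, adjusted p = 0.0306) and Sparc (0.65 ± 0.20, adjusted p = 0.0479) also passed, but Tnc missed the threshold without any 1 of the 3 wild-type embryo pools or of the 6 MEF libraries (adjusted p = 0.0515 to 0.105), and Sparc without any of these or Hbs1l-/- embryo replicate 3 (0.0636 to 0.12). Without Hbs1l-/- embryo replicate 1, Thbs2 (-3.27, adjusted p = 0.0362, from 13 counts or fewer per embryo library) and Thbs3 (-1.28, 0.00144) passed too, and 2765 genes passed over all, against 1027 with that library. Thbs4 had a difference of -2.56 ± 0.29, given with no test. Between embryos and cerebella 0 of 7 differed (0.854% of 14633 genes), with 0 at an unadjusted p below 0.05 and 0 by DESeq2, and Postn passed there without cerebellar control replicate 1 (-1.38, adjusted p = 0.0495). Between cerebella and MEFs 0 of 7 differed (4.85% of 14446 genes), with 1 at an unadjusted p below 0.05 and 0 by DESeq2.

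Other genes of the pathway were taken from lists written from general knowledge. In MEF footprints the CCN family and osteopontin, matricellular proteins of another fold, had 3 of 6 tested genes higher and 2 lower in Hbs1l-/-, 3 higher and 1 lower in Pelo-/-, and 2 higher and 2 lower in labelled Upf2-/- cells. For this list and the next 3, the share of all genes that passed in these comparisons was 34.4%, 44.1% and 43.7%, as above, and the counts are not read as more or less than that. Ccn5 rose by 2.03 ± 0.26, 3.27 ± 0.40 and 1.79 ± 0.29 on the log2 scale (adjusted p = 0.000399, 0.002 and 0.00182) and Ccn3 by 1.18 ± 0.14, 0.96 ± 0.18 and 1.33 ± 0.18 (0.000103, 0.00534 and 0.000995), in the order Hbs1l-/-, Pelo-/-, labelled Upf2-/-. Ccn2, the connective tissue growth factor, fell by 0.40, 0.34 and 0.51 (0.000285, 0.0222 and 0.0121). In Pelo-/- RNA, Ccn5 fell (-1.39 ± 0.38, adjusted p = 0.0332) and Ccn2 rose (0.90 ± 0.11, adjusted p = 0.00168), opposite in sign to the footprints.

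Of 10 relatives of the 9 genes, 8 were tested in Hbs1l-/- footprints (1 higher, 1 lower), 8 in Pelo-/- (4 higher, 2 lower) and 9 in labelled Upf2-/- footprints (4 higher, 2 lower). Tnxb, tenascin-X, rose in all 3 (1.87 ± 0.38, 1.44 ± 0.31 and 2.13 ± 0.45, adjusted p = 0.00117, 0.0031 and 0.00205), and Smoc1, a relative of Sparc, fell in Hbs1l-/- (-0.52 ± 0.18, 0.0476) and Pelo-/- cells (-1.5 ± 0.15, 2.17e-05). Of 20 receptors, 4 rose and 4 fell in Hbs1l-/-, 5 rose and 8 fell in Pelo-/-, and 3 rose and 10 fell in labelled Upf2-/- cells. Sdc4, a syndecan, rose in each (0.83 ± 0.09, 1.19 ± 0.11 and 0.79 ± 0.07, adjusted p = 9.11e-06, 3.85e-05 and 2.73e-06).

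The TGF-beta axis, which Thbs1 and Postn are tied to, had 4 of 14 genes higher in each mutant and 3, 5 and 5 lower. The ligands Tgfb2 (-0.87 ± 0.08, -1.54 ± 0.12 and -0.78 ± 0.08) and Tgfb3 (-0.79 ± 0.07, -0.93 ± 0.10 and -0.50 ± 0.08) and the inhibitor Smad7 (-0.62 ± 0.12, -0.55 ± 0.13 and -0.83 ± 0.16) fell in footprints of all 3, with adjusted p between 3.46e-07 and 0.00671, and the co-receptor Tgfbr3 rose (1.78 ± 0.15, 3.01 ± 0.32 and 1.79 ± 0.22, adjusted p = 1.15e-06, 0.00103 and 0.000389). Medians of the 4 lists lay between -0.20 and 0.55 against -0.01 to 0.00 over all genes. In embryos, where 1.85% of all genes passed, receptors Itgb3 (1.64 ± 0.35, adjusted p = 0.0332) and Cd47 (1.02 ± 0.20, 0.0204) rose and Stab1, which takes up Sparc, fell (-0.84 ± 0.20, 0.045), and 0 genes of the other 3 lists passed. In cerebella 0 genes of the 4 lists passed, against 0.0693% of all genes.

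By transcript, 0 of the 22, 21 and 24 tested transcripts of the 7 genes passed by edgeR in Hbs1l-/-, Pelo-/- and labelled Upf2-/- RNA (1.2%, 2.38% and 5.28% of all transcripts), while 4, 8 and 5 had an unadjusted p below 0.05 and DESeq2 called 3, 6 and 2. Thbs4 and Tnn RNA came from a single coding transcript each in all 11 libraries. Postn was split over splice forms. Postn-204 made up 56.6%, 52.3% and 51.1% of Postn TPM in labelled Upf2-/- cells, 40.1% and 45.7% in Pelo-/-, 24% to 40.9% in Hbs1l-/- and 31.1% to 35.1% in control cells. The labelled Upf2-/- shares lay above all others, but its own level did not pass (0.32 ± 0.41, adjusted p = 0.712). Coding transcripts made up 40.3% to 84.4% of Thbs3 TPM across libraries, against at least 96.5% for Postn, Thbs1, Thbs2, Sparc and Tnc. The rest of Thbs3 TPM was retained introns, other noncoding forms and, in control replicate 3 only, an NMD-annotated form (1.77%, at 0.108 TPM). Comp-204, also NMD-annotated, made up 65.3% of Comp TPM in 1 labelled Upf2-/- library, at 0.22 TPM, and was listed in no other library.

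Over the 12 MEF footprint profiles (9 mutant libraries and 3 summed controls), likeness was measured as Pearson's r of log2(CPM + 1), as a description, since all profiles share the same comparison of mutants and controls. Postn went with Thbs2 (r = 0.922), Thbs3 (0.879) and Thbs4 (0.864) and opposite to Thbs1 (-0.798). Tnn went with Thbs4 (0.816) and Comp (0.725). Tnc had no r beyond 0.552 with any of the others. Among 11967 genes with a mean of at least 1 CPM, the most alike were Tcof1 (0.978), Noc2l (0.977) and Tfap4 (0.975) for Thbs4, and Epsti1 (0.983), Twist2 (0.982) and Oaf (0.977) for Tnn. They were Orc1 (0.984), Cdca8 (0.98) and Dnm1 (0.979) for Postn.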

How the data were processed

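Ribosome footprints were sequenced in 30 libraries and RNA in 11. The authors deposited footprint counts per gene (coding sequence, featureCounts) and, for RNA, estimated counts and TPM per transcript (kallisto 0.42.4, per the submitters' processing notes, which also name Bowtie2 2.2.3 and HISAT2 2.1.0). Reads were assigned by the authors on mm10 with Gencode M24. The authors kept only the longer fragments in cerebellum and shorter ones as well in embryos and MEFs, and pooled samples as described. Their methods give 2 Pelo-/- RNA replicates and 3 for each other genotype. The authors' own test results were not used.

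RNA estimates were added up over each gene's transcripts and rounded to whole numbers. Each comparison was fitted with edgeR 4.0.16 (R 4.3.3; TMM factors, filterByExpr, quasi-likelihood test) on its own libraries, mutants against each other over all MEF libraries, and TE and tissue differences as interaction terms, with Benjamini-Hochberg adjustment over all genes and a threshold of 0.05. Scripts were tested on simulated data. Coordinates and coding lengths are from Gencode M21 (GRCm38). Named are all 9 genes, the 3 targeted genes and, from each list of related genes, up to 4 genes with the largest change among those past the threshold. The members and lists were chosen with earlier results of these data known. Replicates are separate embryos, pools or cerebella per the labels. The 2 assays used partly different embryos, and p-values measure the spread between these libraries only. Counts vary by counting error as well as between samples, and the low genes Comp, Thbs4 and Tnn have the fewest counts in control MEFs. Alternatives were DESeq2 1.42.0, RLE factors, no filter on low counts (at least 1 count), a replicate block, limma 3.58.1 on log2(TPM + 0.5) for genes with at least 1 TPM in 2 libraries, controls summed over the pools, own-pool interactions and leaving out each library.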

Additional observations from a re-analysis of the deposited data

Results flagged for a closer look

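These values differed between mutants or between sources under the same contrast by edgeR's interaction or difference test over all genes. Settings and left-out libraries under which a call was lost are given with it in the report, and the replicate block under the dependence on processing. For the footprint contrast of labelled Upf2-/- and Hbs1l-/- cells, sex and genotype cannot be told apart. In footprints, labelled Upf2-/- cells differed from Hbs1l-/- cells on the log2 scale in Thbs3 (0.42, adjusted p = 0.0166), Tnc (-0.37, adjusted p = 0.0133) and Postn (0.51, adjusted p = 0.0356), each in 3 against 3 libraries. Pelo-/- cells differed from labelled Upf2-/- cells in Thbs3 (-0.32, adjusted p = 0.0286), Tnc (0.38, adjusted p = 0.0063) and Sparc (0.25, adjusted p = 0.00324).

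In RNA, Pelo-/- cells differed from Hbs1l-/- cells in Thbs1 (1.41, adjusted p = 4.31e-05) and Tnc (1.54, adjusted p = 0.000298), and from labelled Upf2-/- cells in Thbs1 (1.07, adjusted p = 0.0001), Tnc (1.75, adjusted p = 7.74e-05) and Sparc (0.43, adjusted p = 0.00562). Both Pelo-/- libraries lay above all other RNA libraries for Thbs1 and Tnc. Of all genes, 62.2% did not overlap between Pelo-/- and control RNA in CPM. Labelled Upf2-/- cells differed from Hbs1l-/- cells in Thbs1 (0.35, adjusted p = 0.0415) and Sparc (-0.41, adjusted p = 0.00378).

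The log2 fold change on Hbs1l loss differed between embryos and MEFs in Tnc (-0.83, adjusted p = 0.0306), Postn (-1.76, adjusted p = 0.000108) and Sparc (0.65, adjusted p = 0.0479). In CPM scaled with TMM factors, Thbs4 (-2.56) was lower than all controls in each of the 3 Hbs1l-/- embryo pools. It was higher than all controls in each of the 3 Hbs1l-/- MEF libraries. In CPM per kilobase, without TMM factors, 1 Hbs1l-/- embryo pool lay just above 1 wild-type pool (11.57 against 11.56). The difference between embryos and MEFs was not tested.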

How the results depend on the processing

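None of the results changed sign together with its call under any alternative, and Postn in all 3 MEF footprint comparisons, in labelled Upf2-/- TE and between embryos and MEFs kept its call under each. DESeq2 called 432 genes in embryos (edgeR 211), 474 in cerebella (10), 214 in Hbs1l-/- TE (4), 568 between embryos and cerebella (125), 1102 between cerebella and MEFs (700), and 3535, 4427 and 5639 transcripts in Hbs1l-/-, Pelo-/- and labelled Upf2-/- RNA (438, 832 and 2144). Of the 7 tested genes it called 1 in embryos, 1 in labelled Upf2-/- RNA and 1 between Pelo-/- and Hbs1l-/- footprints (0 each by edgeR), 4 between labelled Upf2-/- and Hbs1l-/- RNA (2), 5 in Pelo-/- TE (4, with Sparc added at 0.0154), 4 between Pelo-/- and labelled Upf2-/- RNA (3, with Thbs2 added at 0.0105), and 3, 6 and 2 of their transcripts (0). Without the filter on low counts 557 genes were called in embryos, 38 in cerebella, and of the 7 genes 3 in embryos, 1 in labelled Upf2-/- RNA, 1 in labelled Upf2-/- TE (2 with it), 4 between labelled Upf2-/- and Hbs1l-/- RNA, and 1 Pelo-/- transcript. Postn between Pelo-/- and Hbs1l-/- RNA (8.57e-09) and Thbs2 between Pelo-/- and labelled Upf2-/- RNA (1.4e-05) also passed without it. With RLE factors 1 of the 7 was called between labelled Upf2-/- and Hbs1l-/- RNA. Limma on TPM called 0 and 2 of the 7 in Hbs1l-/- and Pelo-/- RNA (2 and 4 by edgeR) and 1548, 1808 and 1402 genes in Hbs1l-/-, Pelo-/- and labelled Upf2-/- RNA (3587, 4777 and 3340). Set against their own pools' controls, mutants differed in 656, 640 and 1663 genes (2466, 2036 and 3707) between Pelo-/- and Hbs1l-/-, labelled Upf2-/- and Hbs1l-/-, and Pelo-/- and labelled Upf2-/- footprints, with 1 and 0 of the 7 in the last 2 (3 each). The own-pool fit counts same-numbered controls of different pools as separate samples, although the comparisons share them in effect. The cause was not tested.

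Same-numbered samples did not deviate together (correlations of -0.233 to 0.331), so the replicate numbers were taken as names only. With a replicate block, 532 genes and 2 of the 7 were called in embryos, 1 of the 7 in Hbs1l-/- RNA, 1 in labelled Upf2-/- RNA, 2780 genes in Pelo-/- RNA, 78 in Hbs1l-/- TE, and 0, 0 and 110 transcripts in the 3 RNA comparisons. It called 4 of the 7 in labelled Upf2-/- footprints (6 without it), where Sparc (adjusted p = 0.0517) and Tnc (0.0791) missed the threshold, as did Thbs3 in Hbs1l-/- RNA (0.0838), Sparc in Pelo-/- RNA (0.107), Postn in Pelo-/- TE (0.137) and Postn between labelled Upf2-/- and Hbs1l-/- footprints (0.0613). Comp in Hbs1l-/- footprints (0.0262), Postn (0.0317) and Sparc (0.0434) in embryos and Thbs3 in labelled Upf2-/- RNA (0.0303) passed with it. The block changed the call of no other tested gene named in the report.

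Leaving out 1 library gave 33 to 2372 genes and 0 to 5 of the 7 in embryos, 0 to 778 genes in cerebella, 3 to 6 of the 7 in labelled Upf2-/- footprints, 1935 to 2887 genes and 0 to 2 of the 7 in Hbs1l-/- RNA, 1952 to 4918 and 2 to 5 in Pelo-/- RNA, 2030 to 3482 and 0 to 1 in labelled Upf2-/- RNA, 0 to 114 and 0 to 1 in Hbs1l-/- TE, and 1512 to 2865 and 1 to 2 in labelled Upf2-/- TE. Between mutants it gave 1466 to 2559 genes and 0 to 1 of the 7 (Pelo-/- and Hbs1l-/- footprints), 1224 to 2191 and 0 to 3 (labelled Upf2-/- and Hbs1l-/- footprints), 2005 to 5688 genes (Pelo-/- and Hbs1l-/- RNA), 1 to 4 of the 7 (labelled Upf2-/- and Hbs1l-/- RNA) and 2260 to 5438 genes (Pelo-/- and labelled Upf2-/- RNA). Between sources it gave 8 to 1149 genes and 0 to 1 of the 7 (embryos and cerebella), 496 to 2765 and 1 to 5 (embryos and MEFs) and 292 to 2082 genes (cerebella and MEFs). For transcripts it gave 0 in Hbs1l-/- and Pelo-/- RNA and 571 to 1271, with 0 to 1 of those of the 7 genes, in labelled Upf2-/- RNA. In embryos Thbs2, Comp and Tnn had 13 counts or fewer per library, and the cause was not tested.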
